A study of Mus musculus with 4 samples.

Results

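Chemokines are small secreted proteins that attract leukocytes through receptors on those cells, and 10 chemokine genes were followed here in cultured mouse adipocyte progenitors. They are Ccl2, Ccl7, Ccl5, Ccl20, Cxcl1, Cxcl5, Cxcl10, Cxcl12, Cxcl14 and Cx3cl1, taken by gene name from tables that together list 15906 genes. Stromal cells of fat are a known source of chemokines, which bring monocytes, neutrophils and lymphocytes into the tissue. Ccl2 and Ccl7 act on CCR2 of monocytes, Cxcl1 and Cxcl5 on CXCR2 of neutrophils, Cxcl10 on CXCR3 of activated T cells, and Cxcl12 on CXCR4. Many inflammatory chemokine genes are switched on by the transcription factor NF-κB, and glucocorticoids are known to repress such genes in many cell types.

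RNA sequencing was made from 4 samples of C57BL/6 adipose progenitors, 1 per group. The groups were CD137+ cells with 1 µM dexamethasone (DEX, a synthetic glucocorticoid), CD137+ cells with PBS, PDGFRα+ cells (also called CD140+) with DEX, and PDGFRα+ cells with PBS. All 4 had been sorted magnetically from fat named SAT or VAT, cultured and exposed to an adipogenic cocktail, so the PBS cells were under differentiation too. The labels give neither the depot of each cell type nor the age of the mice. Values are FPKM, which scales fragment counts by transcript length and library size. They were deposited in 3 tables of 2 columns: DEX and PBS of CD137+ cells, DEX and PBS of PDGFRα+ cells, and the 2 cell types, each with DEX (the between-type table).

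Several columns did not sit with their labels. The sheet names number the libraries: 1 for both columns of the CD137+ table, 1 for DEX and 2 for PBS in the PDGFRα+ table, and 2 for both columns of the between-type table, without saying what a number stands for. The columns labelled CD137+ DEX in different tables were 2-fold or more apart at 1155 of 12362 genes, and those labelled PDGFRα+ DEX at 2629 of 13019, once the median difference was set to 0. In the between-type table, the column for PDGFRα+ with DEX was apart from the PDGFRα+ PBS column at 21 of 12456 genes (0.169%), the closest of the 15 pairs of columns, and both carry the number 2. The next closest pair was CD137+ DEX of its own table and CD137+ PBS (1.06%), and then PDGFRα+ DEX of its own table and CD137+ DEX of the between-type table (6.86%). The 6 columns were therefore treated as 6 libraries, and levels set beside each other across tables are approximate.

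Tsc22d3, a gene that glucocorticoids induce, stood at 38.5 FPKM in the CD137+ library labelled DEX and 76.1 FPKM with PBS, and at 30.2 FPKM in the PDGFRα+ library labelled DEX and 113 FPKM with PBS. Of 8 glucocorticoid-induced genes, 0 were called higher and 4 lower in the PDGFRα+ library labelled DEX, beside 15.5% and 7.71% of all genes tested. In CD137+ cells 0 of the 8 were called either way, beside 0.471% higher and 0.569% lower of all genes tested. With so few genes called there, a count of 0 cannot decide whether the CD137+ labels hold. Sgk1, on the same list, stood at 117 FPKM in the CD137+ library labelled DEX and 67.8 FPKM with PBS, and at 116 and 97.4 FPKM in PDGFRα+ cells. Since Tsc22d3 runs against the labels, treatment is given below as labelled. Tnfrsf9, the gene of CD137, was absent from the list of the CD137+ table. Where listed, its deposited locus spans 947316 bases, and which other genes lie within it was not examined. Tnfrsf9 stood at 4.81 FPKM in PDGFRα+ and 0.161 FPKM in CD137+ cells of the between-type table. Pdgfra stood at 146 FPKM in PDGFRα+ and 67.7 FPKM in CD137+ cells there, and at 154 FPKM in the CD137+ library labelled DEX of its own table. The 8 adipose progenitor markers were all listed in every column, with sums of 1717 to 5497 FPKM. With 1 sample per group there is no replicate check and no test, and the number of reads behind each value is unknown. A gene was called apart at 2-fold or more on log2(FPKM + 1) where its higher library held 1 FPKM or more.

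The 250 bases before the transcription start are shown for Cxcl1, Cxcl10 and Cxcl12. Among the 10 members, Cxcl1 had the leading difference of the CD137+ table and Cxcl10 the widest range over the 6 columns (34.0-fold). Cxcl12 had the largest share of the pool in 3 columns. Sequences are from RefSeq on GRCm38.p6, which held 6 of the 10 genes, and capitals mark matches to the NF-κB consensus, the interferon-stimulated response element, TGANTCA (AP-1) or GGGCGG (a GC box) on either strand.
Cxcl1, chr5:90890995-90891244, plus strand: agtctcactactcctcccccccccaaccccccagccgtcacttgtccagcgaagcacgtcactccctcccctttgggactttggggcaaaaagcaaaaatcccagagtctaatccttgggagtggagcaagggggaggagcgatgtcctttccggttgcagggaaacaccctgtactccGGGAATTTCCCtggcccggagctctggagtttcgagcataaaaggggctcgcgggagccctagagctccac
Cxcl10, chr5:92348890-92349139, minus strand: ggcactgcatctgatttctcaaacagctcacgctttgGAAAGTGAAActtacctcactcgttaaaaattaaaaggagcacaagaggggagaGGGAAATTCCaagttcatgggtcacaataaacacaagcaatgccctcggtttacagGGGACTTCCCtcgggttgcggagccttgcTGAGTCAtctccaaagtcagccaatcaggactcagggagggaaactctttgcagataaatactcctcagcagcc
Cxcl12, chr6:117168285-117168534, plus strand: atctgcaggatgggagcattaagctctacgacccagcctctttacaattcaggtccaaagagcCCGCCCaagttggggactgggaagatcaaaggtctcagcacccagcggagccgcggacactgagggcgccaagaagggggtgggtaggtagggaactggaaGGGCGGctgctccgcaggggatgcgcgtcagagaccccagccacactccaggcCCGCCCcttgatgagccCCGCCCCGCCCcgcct
In Cxcl1 the capitals are 2 overlapping NF-κB matches that begin 71 and 70 bases before the start. The Cxcl10 window held 2 NF-κB matches at 159 and 103 bases, an interferon-stimulated response element at 213 bases and TGANTCA at 74 bases. Cxcl12 had 5 GC boxes, of which those at 16 and 11 bases overlap, and no match to the other motifs. Of the 3 other genes in the table, Ccl20 had 1 NF-κB match at 80 bases, Cxcl14 1 interferon-stimulated response element at 172 bases and Cx3cl1 1 GC box at 27 bases. None of the 6 windows held a match to the glucocorticoid response element. Among 32851 mouse promoter windows of the same length, 3.9% held the NF-κB consensus, 2.98% the interferon-stimulated response element, 6.75% TGANTCA, 32.7% GGGCGG and 0.387% the glucocorticoid response element.

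The mRNAs of chemokines are also known for AUUUA pentamers in their 3' untranslated regions, which decay factors such as tristetraprolin (gene Zfp36) bind. Densities were taken from the longest 3' untranslated region of each gene in GENCODE M21, and the 30 bases richest in pentamers (capitals, with T for U) are shown for the densest member, the next, and Cxcl12 as a sparse one.
Cxcl1, chromosome 5: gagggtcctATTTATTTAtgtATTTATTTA
Ccl20, chromosome 1: tgtaaagatATTTAatgttctgtttATTTA
Cxcl12, chromosome 6: aagcaaatccgaATTTAaataggacATTTA
Cxcl1 had 7 pentamers in 592 bases, 11.8 per kilobase, a density at or above that of 99.5% of 19911 genes. Ccl20, a ligand of CCR6, had 9 in 1050 bases, or 8.57 per kilobase. Ccl7, Cxcl5, Ccl2 and Cxcl10 had 4.60, 4.50, 3.64 and 3.01 per kilobase, above the median of 1.35 over all genes. Those densities rest on few pentamers: 2 in 435 bases, 5 in 1111, 1 in 275 and 3 in 996. A longer form of 9 bases (TTATTTA and 2 more A or T) occurred 2 times each in Cxcl1, Ccl20 and Ccl7. It occurred 1 time in Cx3cl1 and 0 times in Ccl2, Cxcl5, Cxcl10, Cxcl12, Ccl5 and Cxcl14. Of all genes compared, 17.1% held it. Cxcl12 had 4 in 5188 bases (0.771 per kilobase) and the membrane-bound chemokine gene Cx3cl1 0.534, both below that median, and Ccl5 and Cxcl14 had 0.

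The chemokine mRNA pool was made up differently from library to library. In CD137+ cells the 10 genes summed to 1629 FPKM in the library labelled DEX and 1029 FPKM with PBS. For PDGFRα+ cells the sums were 453 FPKM in the library labelled DEX and 496 FPKM with PBS. In the between-type table they were 658 FPKM in PDGFRα+ and 1039 FPKM in CD137+ cells. Cxcl12 alone took 10.8% of the pool in the PDGFRα+ library labelled DEX and 70.5% with PBS. It took 29.3% in the CD137+ library labelled DEX and 54.2% with PBS, and 72.9% in PDGFRα+ and 7.14% in CD137+ cells of the between-type table. The pair Ccl2 and Ccl7 took the opposite shares, 68.6% in the PDGFRα+ library labelled DEX and 16.4% with PBS, and 15.3% in PDGFRα+ and 59.4% in CD137+ cells of the between-type table. Cxcl12 led in 3 columns and Ccl2 in the other 3. In these bulk samples, fewer expressing cells and less mRNA per cell cannot be told apart.

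**Figure D1:**
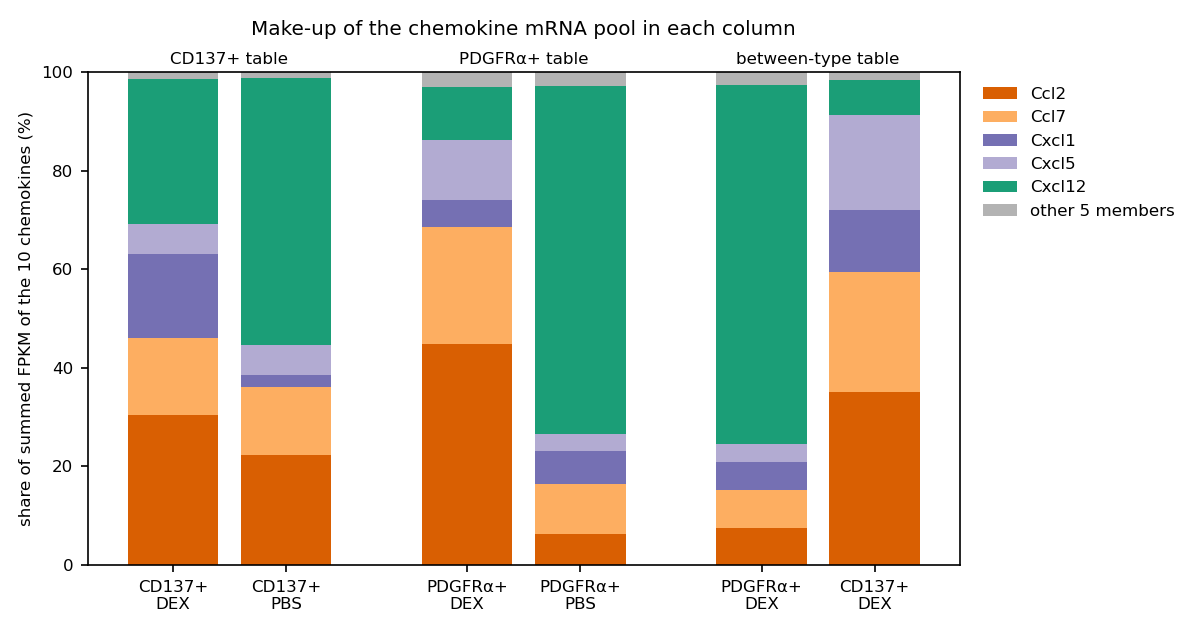
Share of the summed FPKM of the 10 chemokines (vertical axis, percent) taken by Ccl2, Ccl7, Cxcl1, Cxcl5, Cxcl12 and the other 5 in each column (horizontal axis, grouped by table). Cxcl12 fills 10.8% of the pool of PDGFRα+ cells labelled DEX and 70.5% with PBS.

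More mRNA of monocyte and neutrophil attractants, led by Cxcl1, was measured in CD137+ cells labelled DEX than with PBS. Cxcl1 stood at 277 FPKM in the library labelled DEX and 23.8 FPKM with PBS, an 11.7-fold ratio and a log2 difference of 3.49. Ccl2 stood at 496 FPKM in the library labelled DEX and 229 FPKM with PBS, a log2 difference of 1.11. These were the 2 members called higher, and 0 were called lower. Of all 12304 genes at 1 FPKM or more, 0.471% were called higher and 0.569% lower. In all, 9 members were listed and 8 stood at 1 FPKM or more.

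The remaining CD137+ differences lay within 2-fold. Ccl7 stood at 254 FPKM in the library labelled DEX and 143 FPKM with PBS (log2 difference 0.82), and Cxcl5 at 102 and 62.3 FPKM (0.70). Cxcl10 stood at 16.8 FPKM in the library labelled DEX and 9.11 FPKM with PBS (0.82). Cxcl14, a chemokine of resting tissues, stood at 3.52 FPKM in the library labelled DEX and 1.85 FPKM with PBS (0.67), and the T cell and monocyte attractant Ccl5 at 2.58 and 1.60 FPKM (0.46). Cxcl12 was nearly level, at 477 FPKM in the library labelled DEX and 557 FPKM with PBS (-0.22). Cx3cl1 was under 1 FPKM in both (0.775 FPKM labelled DEX and 0.839 FPKM with PBS), and Ccl20 was not listed. The median difference of the 8 members was 0.76, beside 0.05 over all genes tested.

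PDGFRα+ cells labelled DEX had higher Ccl2, Cxcl5, Cxcl10 and Ccl7 and far lower Cxcl12 than those with PBS. Cxcl12 stood at 48.8 FPKM in the library labelled DEX and 350.0 FPKM with PBS, a log2 difference of -2.82. Ccl2 stood at 203 FPKM in the library labelled DEX and 31.6 FPKM with PBS (2.65), and Cxcl5 at 54.9 and 17.5 FPKM (1.59). The median gene of this table differed by 0.24 log2 units, upward with the DEX label. Relative to that shift the differences were -3.06 for Cxcl12, 2.41 for Ccl2 and 1.35 for Cxcl5.

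Cxcl10 stood at 4.57 FPKM in the library labelled DEX and 0.495 FPKM with PBS (1.90, and 1.66 relative to the shift). Ccl7 stood at 107 FPKM in the library labelled DEX and 49.97 FPKM with PBS (1.09), which relative to the shift was 0.85 and within 2-fold. Cx3cl1, whose product tethers monocytes that carry CX3CR1, stood at 3.27 FPKM in the library labelled DEX and 8.84 FPKM with PBS (-1.21, and -1.45 relative to the shift). Thus 4 members were called higher and 2 lower, or 3 and 2 relative to the shift. Across all 13181 genes tested, 15.5% were called higher and 7.71% lower. All 10 members were listed, and 8 stood at 1 FPKM or more.

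Cxcl1, the leading difference among the members in the CD137+ table, stood at 24.6 FPKM in the PDGFRα+ library labelled DEX and 32.7 FPKM with PBS (-0.39). Cxcl14 was level at 4.66 FPKM in the library labelled DEX and 4.08 FPKM with PBS (0.16 as deposited and -0.08 relative to the shift). Ccl5 (0.528 FPKM labelled DEX and 0.895 FPKM with PBS) and Ccl20 (0.754 FPKM labelled DEX and 0.0608 FPKM with PBS) were under 1 FPKM in both libraries. The median over the 8 measured members was 0.62, beside 0.25 over all genes tested.

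**Figure D2:**
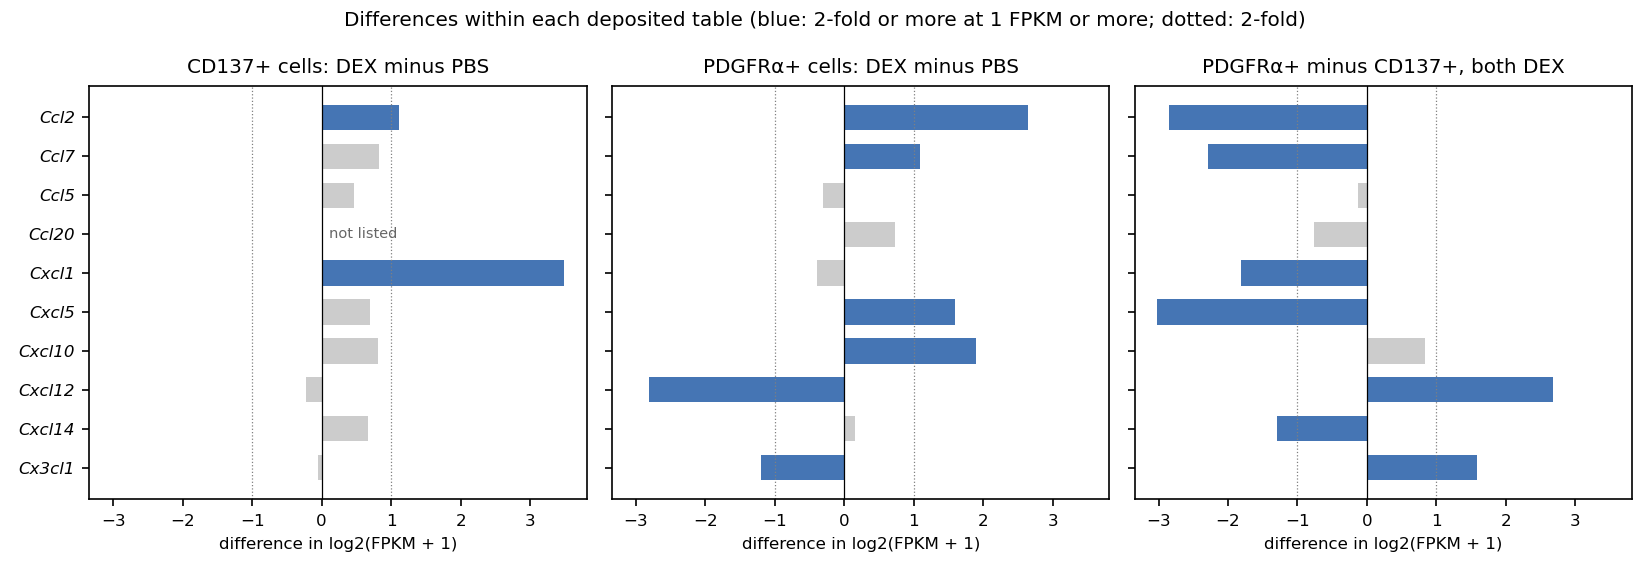
Difference in log2(FPKM + 1) (horizontal axis) of each chemokine (vertical axis) within the 3 tables, with blue bars for those past 2-fold at 1 FPKM or more. Cxcl1 leads in CD137+ cells at 3.49, and Cxcl12 is the lowest in PDGFRα+ cells at -2.82.

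Between the cell types, in the table that holds both DEX libraries, PDGFRα+ cells held less mRNA of the monocyte and neutrophil attractants and more Cxcl12. Ccl2 stood at 49.9 FPKM in PDGFRα+ and 365 FPKM in CD137+ cells, a log2 difference of -2.85. Cxcl5 stood at 23.7 FPKM in PDGFRα+ and 199 FPKM in CD137+ cells (-3.02), and Ccl7 at 50.6 and 251 FPKM (-2.29). Cxcl1 stood at 36.7 FPKM in PDGFRα+ and 132 FPKM in CD137+ cells (-1.82), and Cxcl14 at 4.21 and 11.7 FPKM (-1.29). The typical gene was lower by 0.22 log2 units in PDGFRα+ cells, and each of these 5 stayed past 2-fold relative to it.

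Cxcl12 stood at 479.7 FPKM in PDGFRα+ and 74.2 FPKM in CD137+ cells (2.68), and Cx3cl1 at 9.64 and 2.56 FPKM (1.58). Cxcl10 stood at 2.52 FPKM in PDGFRα+ and 0.968 FPKM in CD137+ cells (0.84, and 1.05 relative to the shift). Ccl20 stood at 0.350 FPKM in PDGFRα+ and 1.295 FPKM in CD137+ cells (-0.77), and Ccl5 was under 1 FPKM in both, at 0.497 FPKM in PDGFRα+ and 0.631 FPKM in CD137+ cells. So 2 members were called higher in PDGFRα+ cells and 5 lower, against 9.25% higher and 11.5% lower of 12912 genes. All 10 were listed and 9 stood at 1 FPKM or more.

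The levels of Ccl2, Ccl7 and Cxcl5 did not overlap between the cell types over the 6 columns. Ccl2 lay between 31.6 and 203 FPKM in the 3 PDGFRα+ columns and between 229 and 496 FPKM in the 3 CD137+ columns. Ccl7 lay between 49.97 and 107 FPKM in PDGFRα+ and between 143 and 254 FPKM in CD137+ columns, and Cxcl5 between 17.5 and 54.9 FPKM in PDGFRα+ and between 62.3 and 199 FPKM in CD137+ columns. Cx3cl1 ran the other way, between 3.27 and 9.64 FPKM in PDGFRα+ and between 0.775 and 2.56 FPKM in CD137+ columns. The gaps were narrow: the lowest CD137+ column of Ccl2 was 1.13 times its highest PDGFRα+ column, and that of Cxcl5 1.14 times.

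Among the 12938 genes tested in this way, 10.4% had all PDGFRα+ columns below all CD137+ columns and 9.12% had them above. Of the 9 members measured in every table, 3 were below and 1 above. The columns of the other 5 overlapped between the cell types. Cxcl12 lay between 48.8 and 479.7 FPKM in PDGFRα+ and between 74.2 and 557 FPKM in CD137+ columns. This count was made after the values were seen, and the same 4 genes were found once the columns were scaled to a common median. Of the 3 PDGFRα+ columns, 2 were the pair that was apart at 0.169% of genes.

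**Figure D3:**
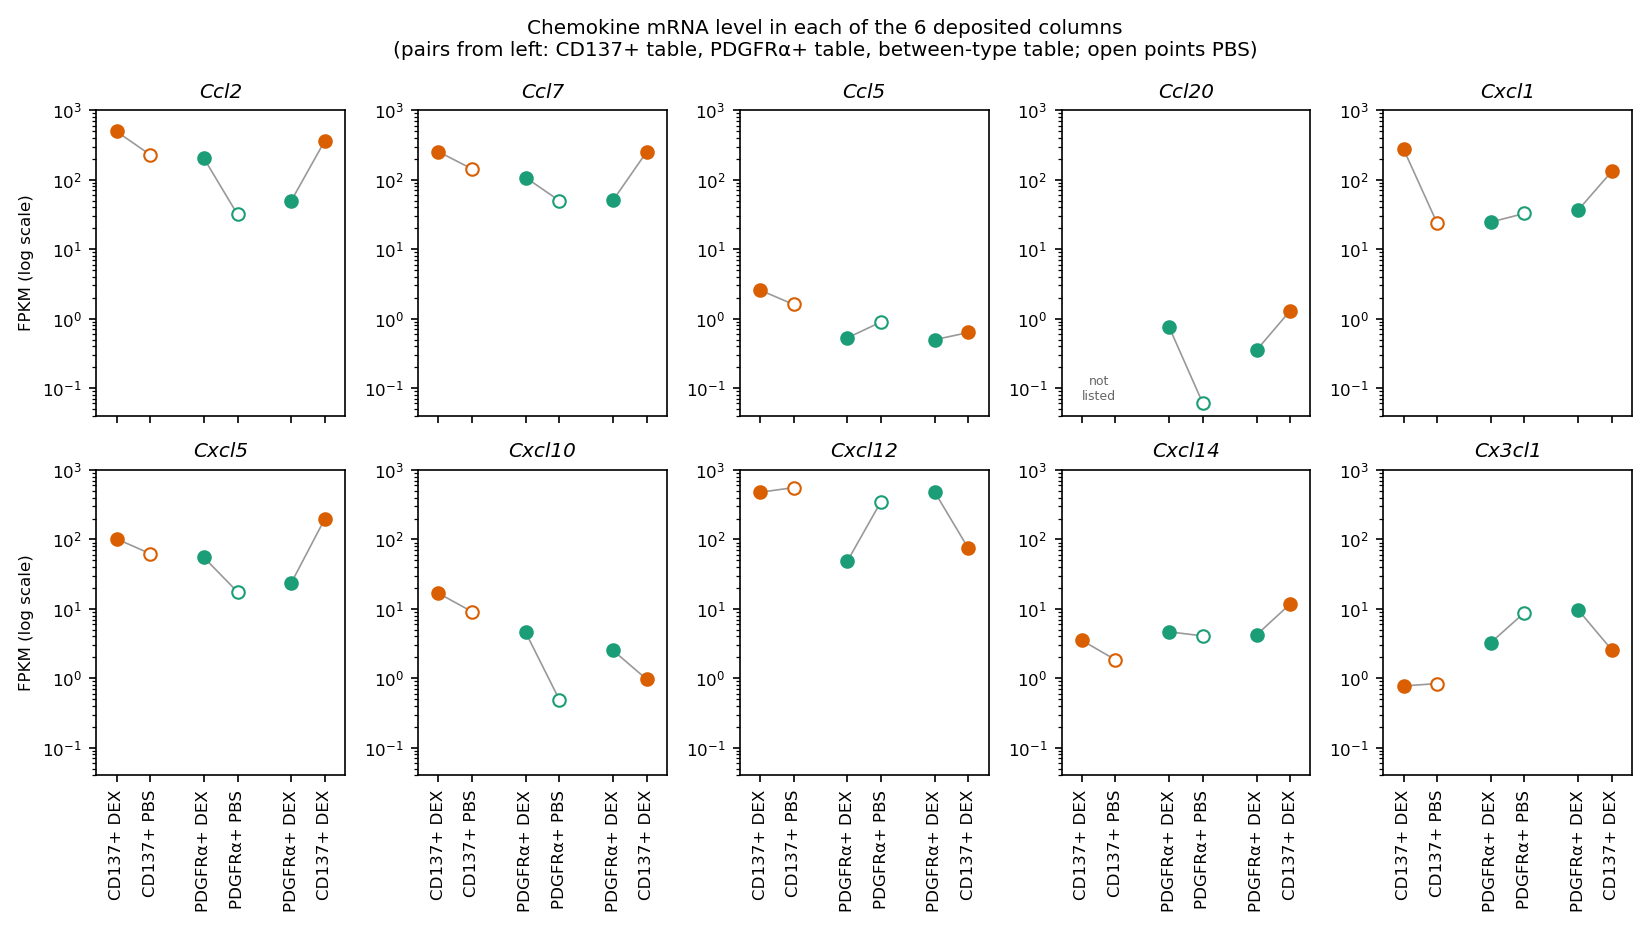
FPKM on a log scale (vertical axis) of each chemokine in the 6 columns, with orange points for CD137+ and green for PDGFRα+ cells, open points for PBS and lines joining columns of 1 table. Ccl2 lies at 31.6 to 203 FPKM in PDGFRα+ and at 229 to 496 FPKM in CD137+ columns, while Cxcl12 overlaps.

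The PBS libraries gave a further comparison of the types, across tables and with the median difference set to 0. Ccl2 stood at 31.6 FPKM in PDGFRα+ and 229 FPKM in CD137+ cells (-2.68), and Cxcl10 at 0.495 and 9.11 FPKM (-2.62). Ccl7 and Cxcl5 were also called lower, and Cx3cl1 was higher by 2.56. In all 1 member was called higher and 4 lower, beside 8.48% and 5.39% of 12481 genes. For the DEX libraries of the single-type tables it was 1 higher (Cx3cl1) and 6 lower, beside 6.66% and 7.41% of 12503 genes. Cxcl12 was among those 6, at 48.8 FPKM in PDGFRα+ and 477 FPKM in CD137+ cells, the opposite order from the between-type table.

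Ranked by level, Ccl2 stood first in the CD137+ and PDGFRα+ libraries labelled DEX of their own tables and in CD137+ cells of the between-type table, and Cxcl12 first in the other 3 columns. In PDGFRα+ cells with PBS, Cxcl12 at 350.0 FPKM was followed by Ccl7 at 49.97, Cxcl1 at 32.7 and Ccl2 at 31.6 FPKM. Cxcl10, Cxcl14, Cx3cl1, Ccl5 and Ccl20 stood at or below 16.8 FPKM in all columns where they were listed. No spread between samples is at hand to say which neighbours in these orders differ.

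Which column labelled DEX was set against PBS decided several directions. With the CD137+ DEX column of the between-type table, Cxcl1 stood 2.30 log2 units above PBS after the median difference was set to 0, against 3.44 with the column of its own table. Cxcl12 stood at -3.02 with that column and at -0.27 with the own one, and Cxcl10 at -2.49 and 0.77. Cxcl5 and Cxcl14 stood at 1.53 and 2.03 with the between-type column, both past 2-fold, and Ccl2 at 0.54. Here 3 members were called higher and 2 lower, beside 4.76% and 7.28% of 12427 genes.

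In PDGFRα+ cells the between-type DEX column left Cxcl12 at 0.42, Ccl2 at 0.61 and Cxcl5 at 0.38 log2 units relative to PBS. Cxcl10 at 1.21 was the 1 member called higher and 0 were called lower, beside 0.0562% and 0.112% of 12456 genes. Cxcl10 was thus above PBS with either PDGFRα+ DEX column, at 4.57 FPKM in the own table, 2.52 FPKM in the between-type table and 0.495 FPKM with PBS.

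**Figure D4:**
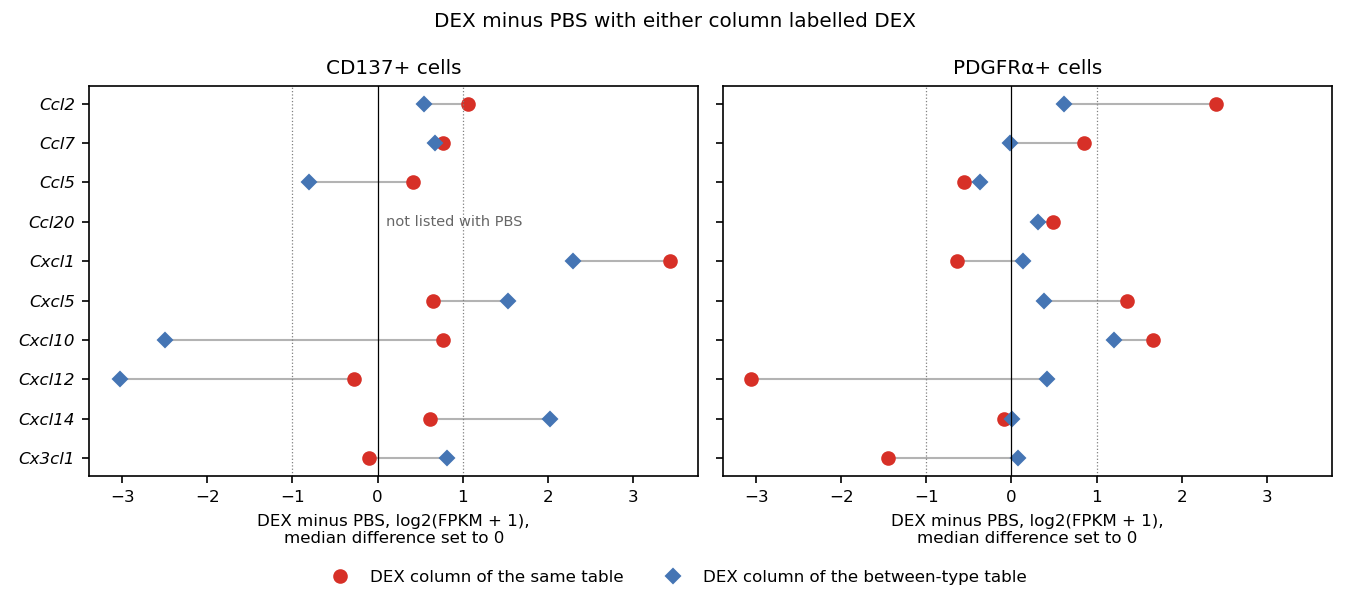
DEX minus PBS in log2(FPKM + 1), median difference set to 0 (horizontal axis), for each chemokine (vertical axis), with red circles for the DEX column of the same table and blue diamonds for that of the between-type table. Cxcl12 in PDGFRα+ cells lies at -3.06 with one column and at 0.42 with the other, and Cxcl1 in CD137+ cells at 3.44 and 2.30.

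In the authors' deposited table of CD137+ cells, 4 of 9 listed members (Ccl2, Ccl7, Cxcl1 and Cxcl5) had a q-value under 0.05, beside 3.72% of all 14208 genes. The authors' deposited table of PDGFRα+ cells gave 3 of 10 (Ccl2, Cxcl10 and Cxcl12), beside 15% of 15009 genes. In the authors' deposited table of both cell types it was 6 of 10 (Ccl2, Ccl7, Cxcl1, Cxcl5, Cxcl12 and Cx3cl1), beside 13.2% of 14679 genes. Each of those tables sets 1 column against 1 column.

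Ccl2 and Ccl7 are neighbours on mouse chromosome 11 (GRCm38), 8259 bases apart, and Cxcl5 and Cxcl1 lie 129617 bases apart on chromosome 5. The deposited locus of Cxcl10 spans 82803 bases and also holds Art3 on the opposite strand. Art3 stood at 0.956 FPKM in the PDGFRα+ library labelled DEX and 5.34 FPKM with PBS, where Cxcl10 stood at 4.57 and 0.495 FPKM. Whether strand was counted is not stated, and without it reads of the 2 genes cannot be told apart. The deposited locus of Ccl2 spans 10340 bases, beside 1883 annotated, and also holds Gm17268 on the opposite strand, which was not listed.

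Likeness was measured over the 6 columns as the root mean square difference of centred log2 values, among 9496 genes. Nearest to Ccl7 was Nqo2 at 0.19, to Cxcl5 Fgf7 at 0.18, to Cxcl12 Osr1 at 0.20 and to Cxcl14 Arhgdib at 0.17. Ier2, an immediate early gene, was nearest to Cxcl1 at 0.44, and Irx1 nearest to Ccl2 at 0.38. Among the members themselves the nearest pair was Ccl7 and Cxcl5 at 0.36, then Ccl2 with Cxcl5 and Ccl2 with Ccl7, both at 0.57. Cxcl12 lay 1.87 or more from each of the 5 others. The 6 columns carry the labels of 4 samples and share tables in pairs.

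The immediate early genes, which cells switch on soon after a stimulus, moved with Cxcl1 in the CD137+ and the between-type table. In the CD137+ library labelled DEX all 7 measured were called higher, beside 0.471% of all genes. Their median difference was 3.83 and their sum 491 FPKM, against 36.3 FPKM with PBS. Fos stood at 148 FPKM in the library labelled DEX and 3.54 FPKM with PBS, and Egr1 at 149.8 and 3.95 FPKM. In the between-type table the sum of the immediate early genes was 99.8 FPKM in PDGFRα+ and 411 FPKM in CD137+ cells. There 0 were called higher in PDGFRα+ cells and 5 lower, beside 9.25% and 11.5%. In the PDGFRα+ table, where Cxcl1 was within 2-fold, 1 of 7 was called higher and 1 lower, beside 15.5% and 7.71%. Between the PBS libraries 4 of 6 were higher in PDGFRα+ cells, beside 8.48%, while Cxcl1 differed by 0.58, within 2-fold. Zfp36, whose product binds AUUUA elements, stood at 65.1 FPKM in the CD137+ library labelled DEX and 11.9 FPKM with PBS. The part of these genes in the Cxcl1 values was not tested.

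Of the NF-κB pathway, 27 genes were measured in each table. In CD137+ cells 2 were called higher and 0 lower, beside 0.471% and 0.569% of all genes. The inhibitor Tnfaip3 stood at 16.5 FPKM in the library labelled DEX and 7.33 FPKM with PBS, and Nfkbiz at 37.1 and 17.4 FPKM. With the between-type DEX column of CD137+ cells 0 were higher than PBS and 1, Tlr2, lower, beside 4.76% and 7.28%. Tnfaip3 stood at 8.12 FPKM and Nfkbiz at 27.2 FPKM in that column. In PDGFRα+ cells 0 were higher and 5 lower, beside 15.5% and 7.71%, among them Nfkbia at 27.4 FPKM in the library labelled DEX and 68.8 FPKM with PBS. With the between-type DEX column of PDGFRα+ cells it was 0 and 0, beside 0.0562% and 0.112%. In the between-type table itself, 5 were called higher in PDGFRα+ cells and 1, the adhesion molecule gene Vcam1, lower, beside 9.25% and 11.5%. The PBS libraries gave 3 higher (Birc3, Nfkbia and Tnfaip3) and 1 lower (Vcam1), beside 8.48% and 5.39%. The DEX libraries of the single-type tables gave 0 higher and 5 lower, Nfkbia among the lower, beside 6.66% and 7.41%. The order of the types thus depended on the columns.

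The interferon axis, to which Cxcl10 belongs as a target, depended on the columns too. In the CD137+ library labelled DEX 1 of 19 genes was higher and 0 lower, beside 0.471% and 0.569% of all genes: Isg15, at 144 FPKM there and 65.9 FPKM with PBS. With the between-type DEX column 0 were higher than PBS and 11 lower, beside 4.76% and 7.28%. In PDGFRα+ cells 0 of 18 were higher and 1 was lower, beside 15.5% and 7.71%, the receptor gene Ifnar2 at 27.9 FPKM in the library labelled DEX and 121 FPKM with PBS.

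Between the types, the between-type table had 6 of 19 interferon genes higher in PDGFRα+ cells and 1 lower, beside 9.25% and 11.5% of all genes, with Isg15 at 25.6 FPKM in PDGFRα+ and 4.69 FPKM in CD137+ cells. The PBS libraries ran the other way, with 1 higher and 9 lower, beside 8.48% and 5.39%. So did the DEX libraries of the single-type tables, with 0 higher and 10 lower, beside 6.66% and 7.41%. Isg15 stood there at 29.0 FPKM in PDGFRα+ and 144 FPKM in CD137+ cells.

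Chemokine receptors were few. Ccr2, Cxcr2, Cxcr3, Cx3cr1 and Ccr6, which bind Ccl2, Cxcl1, Cxcl10, Cx3cl1 and Ccl20 in that order, were not listed in any table. Ackr3, which scavenges Cxcl12, stood at 62.9 FPKM in the CD137+ library labelled DEX and 33.8 FPKM with PBS. It stood at 7.15 FPKM in the PDGFRα+ library labelled DEX and 16.2 FPKM with PBS, past 2-fold. In the between-type DEX columns Ackr3 stood at 21.5 FPKM in CD137+ cells, below PBS, and at 19.3 FPKM in PDGFRα+ cells, above PBS. Both directions thus depended on the column used. Cxcr4, the signalling receptor of Cxcl12, stood at 1.84 FPKM or less in every column. In the CD137+ table it was called lower, at 0.418 FPKM in the library labelled DEX and 1.84 FPKM with PBS.

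Markers of other cells moved with some of these values. The macrophage genes Adgre1, Itgam, Mrc1 and Fcgr1 were not listed anywhere, and 4 or 5 of 10 macrophage markers were listed, summing to 13.5 to 35.9 FPKM. Of 4 measured in the PDGFRα+ table, 1 was called higher in the library labelled DEX and 0 lower, beside 15.5% and 7.71% of all genes. That 1 was Cd68, at 5.44 FPKM in the library labelled DEX and 1.36 FPKM with PBS. Cd14 stood at 23.8 and 15.0 FPKM, within 2-fold. Of 8 lymphocyte markers 0 were listed. The sum of 8 mesothelial markers was 497 FPKM in the PDGFRα+ library labelled DEX and 110 FPKM with PBS, led by the keratin gene Krt8 at 205 FPKM in the library labelled DEX. Krt8, Krt18, Krt19 and Cdh1, which other epithelial cells share, were called higher there, while the more specific Msln and Wt1 were called lower. Wt1 stood at 15.9 FPKM in the library labelled DEX and 44.2 FPKM with PBS, and Msln at 5.30 and 12.0 FPKM. In CD137+ cells 4 of the 8 were listed in the CD137+ table, without Msln and Wt1, and all 8 in the between-type table, where the sum was 120.0 FPKM in PDGFRα+ and 39.6 FPKM in CD137+ cells. The part of these markers in the chemokine values was not tested. Of the neutrophil markers, S100a8 stood at 22.3 FPKM in the PDGFRα+ library labelled DEX and 0.209 FPKM with PBS, while Csf3r was listed at 0 in the library labelled DEX and stood at 1.43 FPKM with PBS, and Ly6g and Mpo were not listed. The 6 neutrophil markers summed to 0.362 to 27.6 FPKM over the columns. Of 7 endothelial markers 6 or 7 were listed, summing to 10.2 to 30.6 FPKM over the columns. Their sum was 10.2 FPKM in the CD137+ library labelled DEX and 21.0 FPKM with PBS. There 3 of 6 measured (Cdh5, Emcn and Pecam1) were called lower and 0 higher, beside 0.569% and 0.471% of all genes. With the between-type DEX column of CD137+ cells 0 were called either way, beside 4.76% higher and 7.28% lower. In PDGFRα+ cells 1 of 6 was higher and 1 lower, beside 15.5% and 7.71%. The part of the endothelial markers in the chemokine values was not tested.

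Summed adipocyte and progenitor markers were lower, within the PDGFRα+ and the between-type table, in the library with less Cxcl12, though not every marker was. In PDGFRα+ cells the adipocyte markers summed to 199.99 FPKM in the library labelled DEX and 1012 FPKM with PBS, and the progenitor markers to 1717 and 5497 FPKM. Of all genes tested in that table, 7.71% were called lower and 15.5% higher. Of the adipocyte markers 6 of 7 were called lower. Of 8 progenitor markers 4 were called lower (Cd34, Col1a1, Dcn and Pdgfra) and Cd24a higher, at 198 FPKM in the library labelled DEX and 29.3 FPKM with PBS. In the between-type table the adipocyte sums were 1086 FPKM in PDGFRα+ and 339 FPKM in CD137+ cells, and the progenitor sums 5251 and 1971 FPKM. Pparg, the adipocyte regulator, ran the other way there, at 8.05 FPKM in PDGFRα+ and 14.2 FPKM in CD137+ cells, and so did the progenitor gene Pdgfrb, at 57.1 and 94.4 FPKM. In the CD137+ table, where Cxcl12 was within 2-fold, the progenitor sums were 4291 FPKM in the library labelled DEX and 4108 FPKM with PBS. The adipocyte sums there were 2526 and 3227 FPKM. Between the PBS libraries 7 of 7 adipocyte markers were called lower in PDGFRα+ cells, beside 5.39% of all genes. Cxcl12 was within 2-fold there, at 350.0 FPKM in PDGFRα+ and 557 FPKM in CD137+ cells. The part of these markers in the Cxcl12 and Ccl2 values was not tested.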

How the data were processed

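RNA was extracted with Trizol and libraries were made with a TruSeq kit of Illumina (labels' protocols). The submitters' processing notes name Cufflinks, Cuffdiff and mm10. Which aligner and annotation were used, and whether strand counted, is not given in the sources used here. Units per the file headers are FPKM, p-value and q-value as the authors deposited them. A deposited log2 ratio was handled as a score, because it holds placeholders where a library is at 0. Steps of whole reads were looked for among low FPKM and not found, so depth is unknown.

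Differences were taken in Python 3.11.15 (numpy 2.4.6, pandas 2.3.3) on log2(FPKM + 1), with 2-fold and 1 FPKM in the higher library as the call. No test was made, since each group has 1 sample. All 10 chemokines are described. From each other list at most 3 genes per comparison are named, those with the largest difference at 5 FPKM or more. Cxcr4, Dpp4, Vcam1, Art3, Csf3r, Msln, Cd24a, Pparg, Pdgfrb, Sgk1 and the members of short counts were picked after their values were seen. The members and lists were chosen with earlier results of these data known. The calls were tried on simulated data with 4-fold changes in genes at 5 FPKM or more. That setting does not cover 2-fold calls near 1 FPKM or the spread between samples. Promoter sequences are from RefSeq and untranslated regions from GENCODE M21. Alternatives were pseudocounts of 0.1 and 5 FPKM, a minimum of 10 FPKM or none, folds of 1.5 and 4, centring, upper quartile scaling, the authors' ratio and the other DEX column.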

Additional observations from a re-analysis of the deposited data

Results flagged for a closer look

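With the DEX columns of the single-type tables, Cxcl1 and Ccl5 had opposite signs in the 2 cell types. For Cxcl1, DEX minus PBS was -0.39 in PDGFRα+ and 3.49 in CD137+ cells, a difference of -3.88 log2 units, and the PDGFRα+ value lay within 2-fold. With the between-type DEX columns both were positive, 0.13 in PDGFRα+ and 2.30 in CD137+ cells. For Ccl5 it was -0.31 in PDGFRα+ and 0.46 in CD137+ cells, a difference of -0.77, within 2-fold in both and under 1 FPKM in PDGFRα+ cells. With the between-type columns both were negative, -0.37 in PDGFRα+ and -0.80 in CD137+ cells. The opposite signs thus depended on the column used, and with 1 sample per group neither difference was tested.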

How the results depend on the processing

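No paired analysis was possible because each group has 1 sample. Of 231 values of single members under the alternatives that keep the 2-fold threshold, 195 kept their direction and their side of it, 13 were no longer past it, 10 passed it, 8 moved and 5 reversed. Dropping the minimum could change none of them, since no gene under 1 FPKM reaches 2-fold on log2(FPKM + 1). With the other DEX columns, 2 of 9 values were kept in CD137+ cells, 4 of 10 in PDGFRα+ cells and 4 of 9 between the types. At 1.5-fold, 6 members and 370 of 12304 genes were higher in the CD137+ library labelled DEX, beside 2 and 58 at 2-fold. At 4-fold it was 1 and 14. In PDGFRα+ cells 4-fold left 1 member higher (273 of 13181 genes) and 1 lower (253), and between the types 1 higher (352 of 12912) and 3 lower (219). A pseudocount of 5 left 1 lower in PDGFRα+ cells (480 genes) and 1 higher between the types (556). A minimum of 10 FPKM left 1 (580 of 6924 genes) and 1 (606 of 6891). With the other DEX columns, 2 were lower in CD137+ cells (905 of 12427), 1 higher (7 of 12456) and 0 lower (14) in PDGFRα+ cells, and 1 higher between the types (833 of 12503). Those columns reversed Ccl7 (-0.013), Cxcl12 (0.42) and Cx3cl1 (0.081) in PDGFRα+ cells, and Cxcl12 (-3.34) and Cxcl14 (0.25) between the types. The cause was not tested. With the median difference set to 0, 1236 genes were higher and 1539 lower in PDGFRα+ cells, beside 2049 and 1016, and 1623 higher and 944 lower between the types, beside 1195 and 1481.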

Other observations

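Some genes whose products cut or present chemokines were called apart between DEX and PBS in the PDGFRα+ table. With the between-type DEX column, 0 genes of either list were called, where only 0.0562% of all genes were higher and 0.112% lower. Of 8 genes of chemokine-cutting proteases, 4 were called higher in the library labelled DEX and 1 lower, beside 15.5% and 7.71% of all genes tested. Mmp14, a membrane-bound matrix protease, stood at 246 FPKM in the library labelled DEX and 93.6 FPKM with PBS, and Mmp13, a collagenase, at 18.2 and 0.195 FPKM. The 1 lower was Dpp4, which trims Cxcl12 and stood at 0.561 FPKM in the library labelled DEX and 3.44 FPKM with PBS. Of 14 genes for heparan sulfate carriers and the enzymes that make the chains, 4 were higher and 1 lower, beside the same 15.5% and 7.71%. The 4 were the carriers Sdc1 and Gpc1 and the enzymes Ext1 and Hs6st1. The carrier Gpc3 was lower, at 7.62 FPKM in the library labelled DEX and 64.8 FPKM with PBS. The median difference of the 14 was 0.16, beside 0.25 over all genes tested.

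Among other chemokines, Cxcl13, which attracts B cells, was listed at 0 in the PDGFRα+ library labelled DEX and stood at 26.6 FPKM with PBS. In the between-type table it stood at 49.9 FPKM in PDGFRα+ and 0.341 FPKM in CD137+ cells. Ccl8 lay between 0.859 and 4.04 FPKM in PDGFRα+ columns and between 20.2 and 99.6 FPKM in CD137+ columns.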
